A study of Tupaia belangeri with 2 samples.

Results

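The cells described here were gated as meningeal fibroblast-type cells of the embryonic tree shrew (Tupaia belangeri) brain, 122 of 17735 cells that had at least 200 genes detected. A cell was a member when it carried at least 5 UMIs (unique molecular identifiers, each counted once per captured transcript) of COL1A1, COL1A2 and COL3A1 together and at least 1 UMI of LUM, POSTN, PGS2, OGN, PCOLCE or COL6A3, which are called the second genes below. Gene models of one name were summed. The members were thus chosen by the measured UMIs of these 9 genes, so the levels of these genes are given as a description and carry no test. The name is that of the gate and does not hold for every member. Of the 122, 20 also met a rule for endothelial or mural cells given below, and 10 of these met both.

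The cells came from whole brains of embryos aged 4 to 5 postconceptional weeks, 2 animals in all, each sequenced as its own 10x Genomics 3' library. Both embryos belonged to a single group with no treatment named, so no condition was compared, and neither strain nor sex is given in the sources used here. The dura mater and the blood vessels had been taken off each brain before papain dissociation, which limits what meningeal and vascular tissue the libraries could still hold. Embryo 1 had 9241 barcodes with 41868023 UMIs, and embryo 2 had 9685 barcodes with 38077767 UMIs.

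The meninges are the connective tissue layers that wrap the brain, and their inner layers, the arachnoid and the pia, form the leptomeninges. Their fibroblasts lay down fibrillar collagen, small proteoglycans and the basement membrane on which the end feet of radial glia rest, and they release retinoic acid and other signals to the underlying neural tissue. The arachnoid also carries transporters and junctions of the barrier between blood and cerebrospinal fluid. Perivascular fibroblasts and the mural cells of vessels, pericytes among them, share several collagen genes with leptomeningeal fibroblasts.

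Embryo 1 held 60 members among 8408 cells and embryo 2 held 62 among 9327. These are shares of 0.714% (exact Clopper-Pearson 95% interval 0.545 to 0.918) and 0.665% (0.510 to 0.851), or 0.689% ± 0.0346 (SD, n = 2 embryos). The intervals cover counting error only. Members were deeper than the other cells, with median UMIs of 6135 in embryo 1 and 5671.5 in embryo 2 against 3537 and 3162, and median genes of 1770 and 1633.5 against 1153 and 1169. The gate asks for a minimum of UMIs, which deeper cells reach more easily, so the choice of cells may have set part of this difference. The 2 libraries shared 18 barcode sequences, of which 0 belonged to members. Over the 5341 genes with at least 10 UMIs in members, the levels of the embryos had a Pearson r of 0.95 on the log2(CPM + 10) scale, where CPM is UMIs per 1000000 UMIs of the summed cells and, since tags from the 3' end are counted, is not divided by gene length. This is a description across genes, which share the 2 libraries.

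The gate genes were carried at high levels in the members of both embryos. COL1A2, a chain of type I collagen, stood at 2545 CPM in the members of embryo 1 and 2160 in those of embryo 2, against 4.81 and 2.80 in the other cells. COL3A1, of type III collagen, stood at 2256 and 1623, and COL1A1, the second chain of type I collagen, at 1052 and 728. Among the second genes, PGS2 (decorin, a small leucine-rich proteoglycan that binds collagen fibrils) was the most abundant, at 1108 and 903 CPM. OGN (osteoglycin) stood at 761 and 543, PCOLCE, which enhances procollagen processing, at 737 and 597, COL6A3 at 348 and 406, LUM (lumican) at 284 and 180, and POSTN (periostin) at 207 and 92.1. All 6 genes named as markers of the type belong to the gate, so the choice of cells set their levels in part and they are no test of the name. COL1A2 was detected in 0% and 1.82% of microglia-type cells, which should lack it and had median UMIs of 1549.5 and 3796.

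The collagen minimum cut few cells. The members carried between 7 and 109 collagen UMIs in embryo 1, with a median of 35.5, and between 5 and 247 in embryo 2, with a median of 25.5. In all, 8 cells with at least 5 collagen UMIs had no second gene and were not members. Just inside the threshold, at 5 or 6 collagen UMIs, lay 0 members of embryo 1 and 9 of embryo 2. Just outside it, at 3 or 4 collagen UMIs with a second gene, lay 5 and 3 cells. PTGDS had 97 UMIs in the 9 cells inside, of which 72 lay in a single cell of 606 UMIs, so that its 1538 CPM there fell to 400.2 without that cell. In the 5 and 3 cells outside it stood at 31.3 and 221 CPM, on 2 UMIs in each embryo. All 27 KDR UMIs of the cells inside (428 CPM) lay in 1 cell, and the cells outside had 78 and 2 KDR UMIs, or 1222 and 221 CPM.

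The members were not uniform, and the number of second genes separated them into parts with different companions. Of the 122 members, 87 carried 4 to 6 second genes (44 and 43 per embryo) and 35 carried 1 to 3 (16 and 19). Of these 35, 17 met the rule set here for mural cells (at least 3 UMIs and 2 genes of RGS5, KCNJ8, ABCC9, NOTCH3, COX4I2 and 5 like genes) and 10 met the like rule for endothelial cells, whereas of the 87, 0 met the first and 3 met the second. The split at 4 was chosen after these values had been seen, so the strata are described per embryo and not tested. Members with 1 to 3 second genes had median UMIs of 4235 and 3015 against 6460 and 6098 for those with 4 to 6, and the part of depth in the split was not tested.

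The 10 members of few second genes that met the endothelial rule met the mural rule as well. These cells (4 and 6 per embryo) were deep, with 11284 to 23436 UMIs in embryo 1 and 5593 to 28948 in embryo 2, and carried only 7 to 14 and 5 to 8 collagen UMIs. They held 60.4% and 71.2% of all UMIs of the members with 1 to 3 second genes, so that they weigh heavily in every summed level of that stratum. The other 25 (12 and 13 cells) had median UMIs of 2876.5 and 1782. Doublets were not called, and their part in the 10 cells was not tested.

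**Figure D1:**
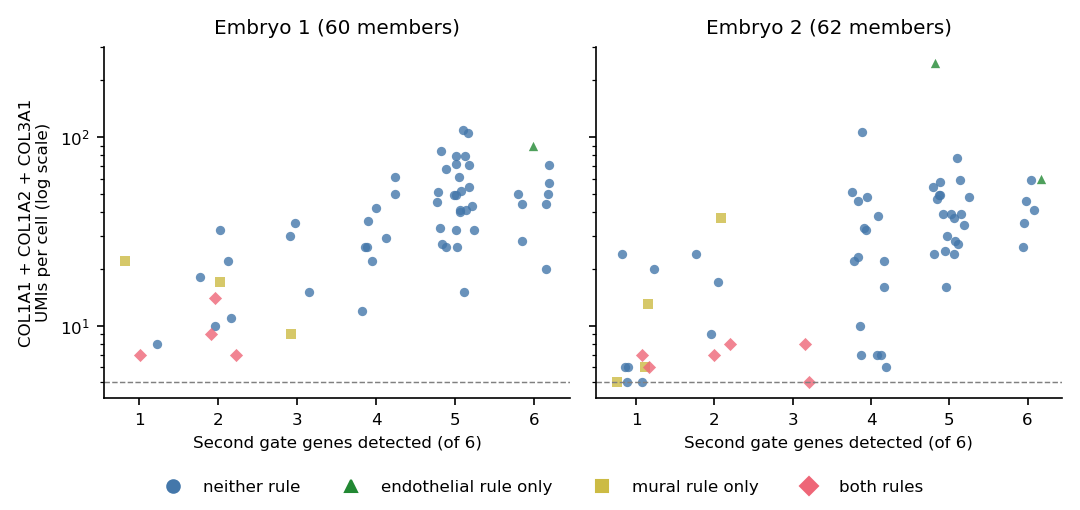
Collagen UMIs of each member (log scale) against the number of second genes detected, one point per cell with horizontal jitter, by embryo; the dashed line is the minimum of 5 UMIs. Cells that met the mural rule, alone or with the endothelial rule, all carried 1 to 3 second genes, and 3 members with 5 or 6 met the endothelial rule alone.

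The summed levels of vascular genes were higher in members with few second genes, and for KDR and PECAM1 the 10 cells that met both rules held nearly all UMIs of that stratum. Both genes belong to the endothelial rule and those named next belong to the mural rule, so where their UMIs lie was fixed in part by the rules and is a description. KDR, a receptor of vascular endothelial growth factor, stood at 1130 CPM in embryo 1 and 876 in embryo 2 in members with 1 to 3 second genes, and at 119 and 167 in those with 4 to 6. Within the first stratum it stood at 1873 and 1222 CPM in the 10 cells and at 0 and 19.8 in the other 25, of which 1 had a UMI. The shares of cells with a KDR UMI were close, at 25.0% and 31.6% of members with 1 to 3 second genes and 27.3% and 30.2% of those with 4 to 6.
PECAM1, an adhesion molecule of endothelium, stood at 380 and 182 CPM in the members with 1 to 3 second genes, all of it in 9 of the 10 cells. Its 0 UMIs in the other 25 members of that stratum allow up to 70.1 and 59.3 CPM at 3 counts per embryo, and its 0 UMIs in the 87 members with 4 to 6 allow up to 9.89 and 11.1.

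The mural genes were not limited to these cells. ABCC9, a subunit of a potassium channel of pericytes, stood at 769 and 392 CPM in the members with 1 to 3 second genes against 6.59 and 14.8 in those with 4 to 6, and at 1028 and 415 in the 25 that did not meet both rules, of which 3 and 5 had a UMI. KCNJ8, the pore partner of ABCC9, stood at 241 and 210 CPM in the 35 members and at 210 and 198 in the 25. COX4I2, a respiratory chain subunit of pericytes, stood at 195 and 245 and at 210 and 138, and both genes had 0 UMIs in the 87.

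Other genes went the opposite way. PTGDS stood at 1964 and 1399 CPM in members with 1 to 3 second genes and at 13168 and 23903 in those with 4 to 6. S100A6 stood at 547 and 250 against 2583 and 3072, and VCAN (versican, a large matrix proteoglycan) at 18.5 and 56.9 against 620 and 638. Both embryos showed the same order for each, and kept it with the 10 cells left out, where PTGDS stood at 4931 and 4864 CPM, S100A6 at 1122 and 653, and VCAN at 46.7 and 178 in the 25 members.
RANBP3L had 0 UMIs in the 35 members and stood at 92.3 and 92.7 CPM in the 87, and CDH1, the epithelial cadherin, stood at 0 and 5.69 against 72.5 and 126. COL6A1 (named CO6A1 in the annotation) differed less, at 482 and 216 CPM against 250 and 215, and its levels in the strata overlapped. Without the 10 cells it stood at 654 and 356 CPM in the 25 members, above both levels of the 87.

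**Figure D2:**
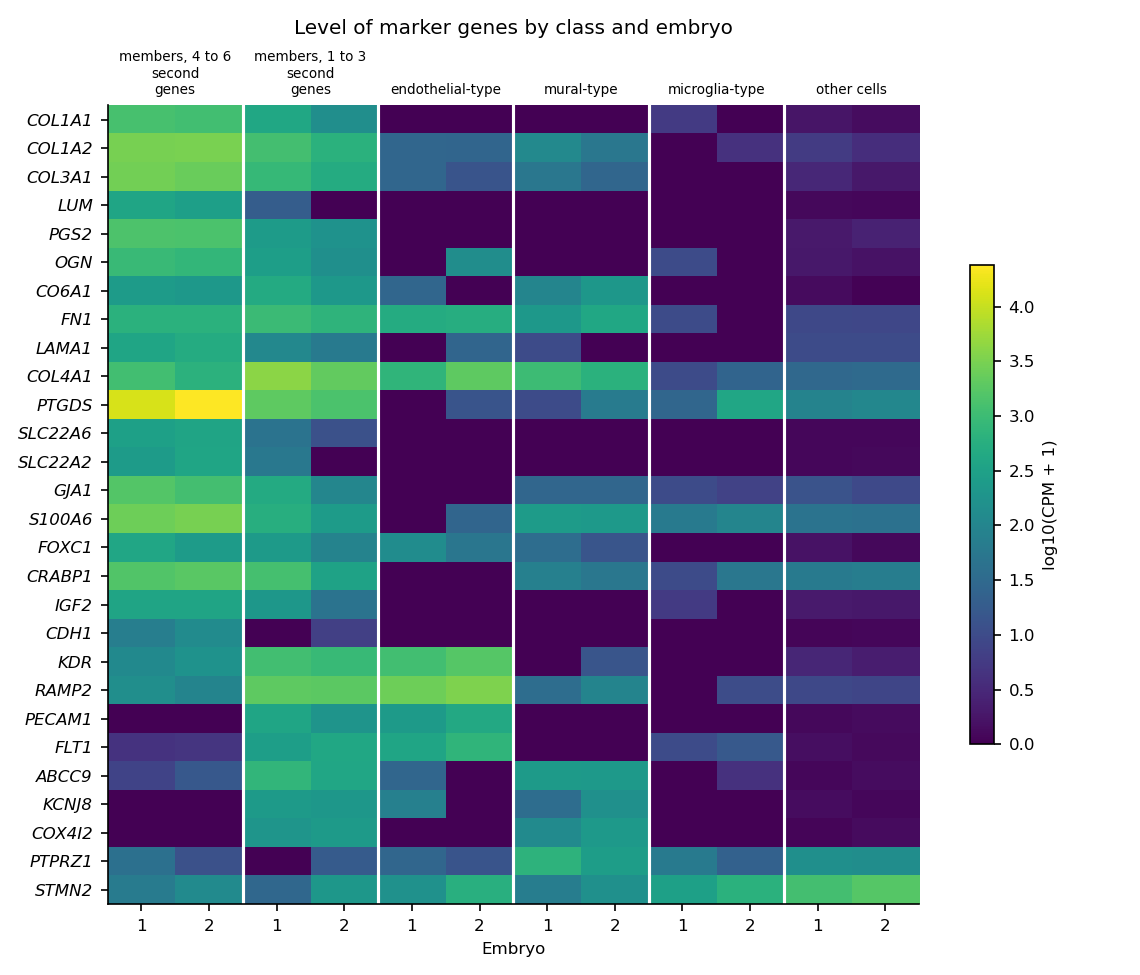
Level of marker genes as log10(CPM + 1) of summed UMIs, for each class of cells and each embryo (columns 1 and 2). Members with 4 to 6 second genes carry PTGDS, SLC22A6 and GJA1 and 0 UMIs of PECAM1, KCNJ8 and COX4I2, while the sums of those with 1 to 3, of which the 10 cells that met both vascular rules hold 60.4% and 71.2% of the UMIs, are higher for KDR, RAMP2 and ABCC9.

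The members were then compared with the other cells of the brain, those that met none of the rules for members, endothelial-type, mural-type, microglia-type or choroid plexus-type cells (8235 and 9159 cells). UMIs were summed per embryo and class and tested with edgeR's quasi-likelihood test, with the embryo as a block and Benjamini-Hochberg adjustment. Of 4385 genes that passed the filter on low counts, 1291 were higher in members (29.4% of those tested) and 859 were lower (19.6%) at an adjusted p under 0.05. With the members limited to the 87 cells with at least 4 second genes, a choice made after seeing the data, 1032 of 3680 were higher (28.0%). The former members were then classed by the remaining rules, so the other cells numbered 8244 and 9168 and held some of them. The mural-type cells likewise numbered 11 and 12. Since a gene of high level in members alone could pass the filter through them, counts are given with no filter too, where 1417 of 15219 genes with a UMI were higher (9.31%) and 1751 lower (11.5%), with a median log2 fold change of -0.62. The p-values rest on the spread left once class and embryo are fitted, not on the difference between the 2 embryos of one group. This spread is shared by all classes of the fit and drawn toward that of other genes.

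The matrix genes outside the gate were higher in members. Of 23 fibrillar and associated collagens listed, 22 had a name in the files and 4 were gate genes. Of the other 18, 9 passed the filter and all 9 were higher, with a median log2 fold change of 6.98 beside 0.06 over all genes tested, and with no filter 13 of the 18 were higher and 0 lower. COL6A1 (CO6A1), a chain of type VI collagen, stood at 311 and 216 CPM against 0.322 and 0.0577 in the other cells, a log2 fold change of 10.38 ± 0.32 (SE), adjusted p = 1.07e-24. COL6A2, another chain of type VI collagen, stood at 139 and 83.1 CPM (9.45 ± 0.49). These levels are sums over members, and whether the same cells held both chains was not tested. The fibril collagen COL5A2 stood at 343 and 292 CPM (6.54 ± 0.21) and COL13A1, a transmembrane collagen, at 175 and 130 (7.72 ± 0.36).

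Proteoglycans and the enzymes of collagen assembly were higher too. Of 11 proteoglycan genes outside the gate, 4 passed the filter and were higher (median 4.96). With no filter 8 of 11 were higher, with a median of 4.63 beside 4.87 for the 18 collagens, and the lists were not compared by a test. VCAN stood at 462 and 409 CPM against 49.8 and 60.7 (3.03 ± 0.15), and BGN (biglycan, kin to decorin) at 41.3 and 38.2 against 0.349 and 0.144 (7.32 ± 0.61).
For folding, processing and crosslinking of collagen, 7 of 25 genes outside the gate passed the filter and were higher (median 2.45), and 17 of 24 with no filter (median 2.74). SERPINH1, the collagen chaperone of the endoplasmic reticulum, stood at 63.2 and 58.4 CPM against 6.74 and 5.71 (3.34 ± 0.36). P4HA1, which hydroxylates proline in collagen, differed less, at 107 and 98.8 CPM against 49.8 and 46.1 (1.15 ± 0.21), as did MIA3, which loads collagen for export, at 177 and 191 against 88.7 and 102 (1.01 ± 0.17).

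Matrix glycoproteins were led by FN1 (fibronectin), at 707 and 667 CPM against 8.06 and 7.56 (6.51 ± 0.20). SPARC, a collagen-binding glycoprotein, stood at 379 and 240 (5.28 ± 0.21), FBN1, of microfibrils, at 352 and 303 (5.83 ± 0.19), and FSTL1 at 343 and 216 (3.75 ± 0.18). In this list 12 of 32 genes outside the gate passed the filter and were higher (median 5.47), and with no filter 18 of 29 were higher and 1 lower (median 4.38). MGP, a matrix protein of many fibroblasts, had 1 and 2 UMIs in members, did not pass the filter and was not called without it (adjusted p = 0.958).

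All 10 basement membrane genes that passed the filter, of 12 named, were higher (median 5.71), and with no filter 11 of 12 were higher and 1 was not called (median 5.39). COL4A1, a chain of type IV collagen, stood at 1911 and 1222 CPM against 29.5 and 31.8 (5.70 ± 0.20), with 4141 and 2116 CPM in members with 1 to 3 second genes and 1117 and 638 in those with 4 to 6. LAMA4, the laminin chain of vessels, stood at 255 and 418 CPM (7.43 ± 0.26), and at 787 and 853 against 65.9 and 134 in the strata. LAMA1, the laminin chain of embryonic and pial basement membranes, had the opposite order, at 111 and 62.6 CPM against 379 and 497, with 309 and 326 in all members (5.21 ± 0.19). Of the 12 named genes, 6 stood higher in both embryos in the members with 1 to 3 second genes, 5 stood lower in both and 1 differed between embryos. With the cells that met both vascular rules left out these counts were 5, 4 and 3. The summed level of the list was 7625 and 5057 CPM against 2728 and 2304. NID2 (nidogen 2) stood at 136 and 130 CPM (8.98 ± 0.43).

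Genes known from the leptomeninges and the arachnoid barrier were among those with the largest differences. Of 20 listed transporters, junction genes and enzymes with a name in the files, 9 passed the filter and were higher (median 7.47), with 12 of 19 higher and 1 lower under no filter (median 6.40). SLC22A6, an organic anion transporter, stood at 238 and 220 CPM against 0.188 and 0.173 (10.28 ± 0.32, adjusted p = 1.47e-24). SLC22A2, an organic cation transporter, stood at 197 and 229 CPM against 0.215 and 0.231 (9.90 ± 0.33). GJA1 (connexin 43), the gap junction protein, stood at 1303 and 743 CPM against 12.1 and 8.11 (6.68 ± 0.19). S100A6, a calcium-binding protein, stood at 2049 and 1958 CPM against 46.0 and 42.2 (5.55 ± 0.19).
SLC6A13, a transporter often used as a marker of these cells, had no gene of that name in the files.

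PTGDS, which makes prostaglandin D2 and is a major secreted protein of the leptomeninges, was the most abundant of these genes. Its level was 10228 CPM in the members of embryo 1 and 15020 in those of embryo 2, against 89.1 and 104 in the other cells (log2 fold change 7.01 ± 0.31, adjusted p = 1.61e-20). The level was uneven between members. In embryo 1, 42 of 60 members had a UMI, the median member had 0.147% of its UMIs in PTGDS and the highest 19.8%. In embryo 2, 50 of 62 had a UMI, with a median of 0.236% and a highest value of 19.7%. The highest 5 members held 50% of the PTGDS UMIs of embryo 1, and the highest 3 those of embryo 2. By contrast 50% of the FOXC1 UMIs lay in 13 and 9 members, and 50% of those of IGF2 in 14 and 11. At a depth of 1000 UMIs per cell, which left out 3 and 8 members, PTGDS was detected in 54.4% and 53.7% of members and in 5.16% and 5.98% of the other cells, and unthinned in 70.0% and 80.6% against 15.1% and 15.9%. Microglia-type cells, which should lack it, showed it in 6.76% and 27.3%.

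**Figure D3:**
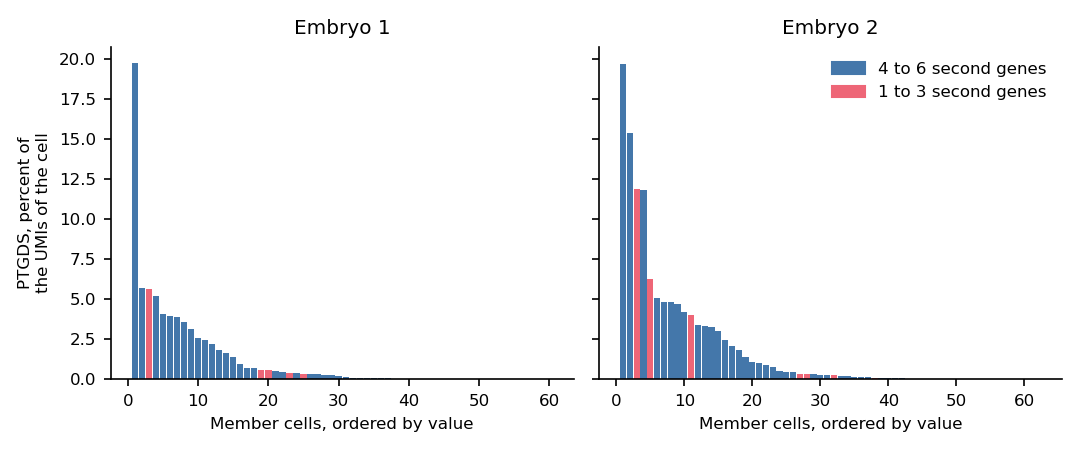
Share of the UMIs of each member cell that came from PTGDS, ordered from high to low, by embryo, with members of 4 to 6 and of 1 to 3 second genes in different colours. The highest cells reach 19.8% and 19.7%, and the members without a PTGDS UMI lie at 0.

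CDH1 was detected in 6 members of embryo 1 and 8 of embryo 2, at 53.5 and 78.6 CPM in all members against 0.134 and 0.173 in the other cells (8.73 ± 0.55). It is an adherens junction gene of epithelia and of the arachnoid barrier layer. These 14 cells were picked after their values had been seen and are only described. In embryo 2, 1 of the 8 had 1 to 3 second genes. SLC22A2 stood at 585 and 680 CPM in them against 173 and 293 in the members with 4 to 6 second genes and no CDH1, and PROS1 (protein S, an anticoagulant) at 1115 and 1464 against 704 and 586. MOXD1, a copper monooxygenase, had the opposite order, at 146 and 227 against 1459 and 1092, as had S100A6, at 640 and 1133 against 3011 and 3550. PTGDS differed in order between the embryos, at 26064 CPM against 10332 in embryo 1 and 15284 against 25866 in embryo 2. The cells with CDH1 were deeper, with median UMIs of 8996.5 and 7834.5 against 5941 and 5687. Of 9 genes of the skin and surface epithelium list with a name, 6 had 0 UMIs in members.

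Retinoid genes were higher in members. CRABP1, a retinoic acid-binding protein, stood at 1483 and 1217 CPM against 62.3 and 72.1 (4.38 ± 0.20). ALDH1A2, the enzyme that makes retinoic acid in embryonic meninges, stood at 48.6 and 33.7 CPM against 0.0537 and 0.202 (8.30 ± 0.66), with UMIs in 21.7% and 21.0% of members. CRABP2 stood at 36.5 and 31.4 CPM (6.40 ± 0.60). In this list 4 of 11 named genes passed the filter and were higher (median 5.39), and 8 of 11 with no filter (median 4.15).

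Among transcription factors, FOXC1, which is required for meningeal and skull development, stood at 352 and 189 CPM against 0.618 and 0.260 in the other cells (9.25 ± 0.28, adjusted p = 4.45e-25). It was detected in 78.3% and 56.5% of members. ZIC1 and ZIC2, zinc-finger factors of meninges and dorsal neural tissue, stood at 141 and 62.9 CPM (1.57 ± 0.24) and at 134 and 67.4 (1.94 ± 0.28), and were also found in the other cells, ZIC1 at 34.1 and 34.4. NR2F2 stood at 58.3 and 76.3 CPM (1.10 ± 0.26). Of 36 named factors 8 passed the filter and were higher (median 4.76). The median was 2.36 over the 7 that passed with at least 4 second genes, and 2.30, with 6 of 7 higher, without the members that met another rule. With no filter 15 of 33 were higher and 2 lower (median 3.85). FOXC2 had 1 UMI in each embryo and TBX18, a factor of mural cells and meninges, 7 and 4, so neither passed the filter, and no gene was named TWIST1. With no filter TBX18 was called higher (7.33 ± 1.41, adjusted p = 2.771e-06) and FOXC2 was not called.

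The ligands were headed by PTN (pleiotrophin), at 2681 and 2043 CPM against 478 and 477 (2.34 ± 0.18), and IGF2, a growth factor of the leptomeninges, at 314 and 238 against 1.10 and 0.924 (8.11 ± 0.25). Midkine (MK), kin to pleiotrophin, stood at 228 and 106 CPM against 35.0 and 46.4 (2.06 ± 0.22). TGFB1 stood at 153 and 204 CPM (6.92 ± 0.23), with 482 and 398 in members with 1 to 3 second genes against 36.2 and 77.9 in those with 4 to 6. Of 41 named ligands, 10 passed the filter, 9 were higher and 1 was not called (median 4.60), and with no filter 15 of 40 were higher (median 2.19). CXCL12 (SDF1), the chemokine with which meninges guide migrating neurons, had 15 and 7 UMIs, or 36.5 and 15.7 CPM, and BMP7 had 0 and 1. Neither passed the filter. With no filter CXCL12 was called higher (5.47 ± 0.80, adjusted p = 1.913e-10) and BMP7 was not called.

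Of the growth factor binders, IGFBP7 stood at 984 and 1055 CPM (7.49 ± 0.22), and like the vascular genes it was higher in members with 1 to 3 second genes (3122 and 2201) than in those with 4 to 6 (224 and 308). IGFBP2 stood at 202 and 209 CPM against 63.8 and 82.4 (1.55 ± 0.17), and FST (follistatin) was lower in members, at 12.2 and 26.9 against 56.3 and 59.4 (-1.49 ± 0.35). Of 24 named, 9 passed the filter, of which 7 were higher, 1 lower and 1 not called (median 2.57), against 12 higher and 2 lower of 24 with no filter (median 2.25).

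Among receptors, ITGBL1, an integrin-like protein, stood at 321 and 265 CPM against 0.322 and 0.318 (9.84 ± 0.27), and ITGB1 (integrin beta 1) at 761 and 703 against 156 and 169 (2.23 ± 0.16). PDGFRA, the platelet-derived growth factor receptor of fibroblasts, stood at 63.2 and 26.9 CPM (5.52 ± 0.51), and PDGFRB, shared by mural cells and fibroblasts, at 41.3 and 33.7 (7.14 ± 0.61). In the members with 1 to 3 and with 4 to 6 second genes PDGFRA stood at 37.1 and 5.69 against 72.5 and 40.8 CPM, and PDGFRB at 92.6 and 62.6 against 23.1 and 14.8. Without the 10 cells that met both vascular rules PDGFRA stood at 93.5 and 19.8 CPM in the first stratum, on few UMIs, so that its order was different in the 2 embryos. ITGA1 stood at 165 and 184 CPM (8.74 ± 0.34) and ENG (endoglin) at 48.6 and 44.9 (9.01 ± 0.64). Neither passed the filter when members needed at least 4 second genes, nor did PDGFRB. Of 34 named receptors 17 passed the filter, 14 were higher, 1 lower and 2 not called (median 5.49), with 23 higher and 1 lower of 34 under no filter (median 3.81).

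Further genes named by the size of their difference alone were MPZL2, an adhesion molecule of epithelia, at 80.2 and 65.1 CPM (9.27 ± 0.56), CPZ, a carboxypeptidase that binds WNT proteins, at 185 and 80.8 (9.25 ± 0.44) and RANBP3L at 68.1 and 56.1 (8.89 ± 0.57). ABCC9, at 207 and 164 CPM, was among them by size but belongs to the mural rule, and it did not pass the filter with at least 4 second genes. VIM (vimentin), the intermediate filament of mesenchyme and radial glia, stood at 4524 and 3602 CPM against 707 and 674 (2.60 ± 0.15).

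**Figure D4:**
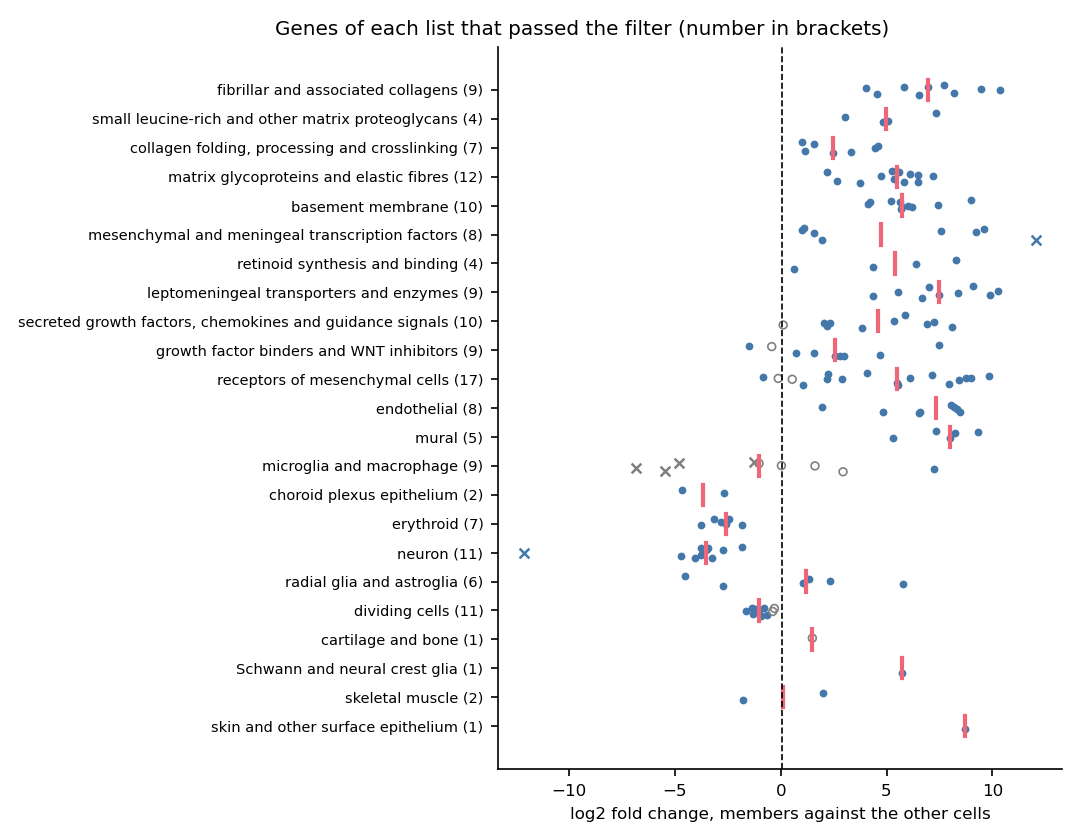
log2 fold change between members and the other cells for each gene of the lists that passed the filter, without the gate genes; filled points had an adjusted p under 0.05, open or grey ones did not, and crosses are genes with 0 UMIs in one class, at fitted values that are no bound. Cells that met the endothelial, mural, microglial or choroid plexus rules are not among the other cells, so the endothelial and mural points are a description. Red bars are the medians of lists and the dashed line is the median of all 4385 genes tested (0.06).

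Markers of other cell types showed what else the members held. Cells that met the endothelial or the mural rule had been taken out of the other cells but stayed among the members (13 and 17 members), so the classing itself fixed part of the difference in these genes, and their levels are a description with no test. The 21 named endothelial genes had a summed level of 1347 and 1774 CPM in members against 30.9 and 17.9 in the other cells. RAMP2, a receptor partner in endothelium, was the most abundant, at 620 and 788 CPM. The named mural genes had a summed 574 and 595 CPM against 19.1 and 23.0, led by ABCC9. In members with 4 to 6 second genes these sums were 297 and 301 CPM for the endothelial list and 175 and 137 for the mural list, with PECAM1, KCNJ8, COX4I2 and RGS5 at 0 UMIs. With at least 4 second genes, 2 of the 8 endothelial and 1 of the 5 mural genes that had passed the filter still passed it. With the 20 members that met another rule left out, 1056 genes were higher and 711 lower. Of 83 named genes tested against the other cells, 71 passed the filter then, and all 71 kept their direction and call. KDR and RAMP2 are among the 71, but they belong to the endothelial rule, so their calls were fixed in part and say nothing on stability. The 12 that did not pass were ABCC9, BGN, COX4I2, ENG, FLT1, HSPG2, ITGA1, KCNJ8, OTX2, PDGFRB, PECAM1 and VTN. Among those with a smaller difference then were IGFBP7 (5.47), LAMA4 (5.89), TGFB1 (5.22) and COL4A1 (4.74).

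Neuronal genes were lower in members. All 11 neuronal genes that passed the filter were lower (median -3.52), and 12 of 14 with no filter, with sums of 109 and 281 CPM against 2097 and 3031. STMN2, a microtubule regulator of growing neurons, stood at 55.9 and 155 CPM against 1179 and 1698 (-3.77 ± 0.22), and GAD2, which makes the transmitter GABA, at 19.4 and 15.7 against 213 and 405 (-4.05 ± 0.27). NFL (neurofilament light) had 0 UMIs in members and 3336 in the other cells.
GPM6A, a neuronal membrane protein, stood at 24.3 and 11.2 CPM against 273 and 316 (-4.02 ± 0.27), and TTR (transthyretin), the main product of choroid plexus, had 6 and 8 UMIs in members and stood at 442 and 366 CPM in the other cells (-4.67 ± 0.41). For the choroid plexus list, 2 genes of 10 passed and both were lower. With no filter FOLR1, at 7 and 2 UMIs in members, was called higher as well.

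The calls for blood genes depended on which cells entered. All 7 erythroid genes that passed the filter were lower in members (median -2.58), and with no filter 8 of 13. With every class limited to cells with at least 1000 genes 0 of 6 tested were called (median 0.10), and with cells of at least 1% haemoglobin UMIs left out 1 of 2 was lower. Few cells set the level in each embryo. HBB stood at 8012 and 40346 CPM against 222819 and 82339 (-2.42 ± 0.45). A single member held 2265 of the 3296 HBB UMIs of embryo 1 and another 9905 of the 17968 of embryo 2. The direction for HBB and HBG1 turned with at least 1000 genes per cell (0.38 and 0.49), and that for HBE1 without haemoglobin-rich cells (0.036), in no case with a call. Without the 20 members that met another rule the HBB difference was -5.49 and the median of the list -5.49, with all 7 lower. In all, 7 members (4 and 3) had at least 1% haemoglobin UMIs.

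Glial genes moved both ways. FABP7, a lipid-binding protein of radial glia, stood at 12.2 and 8.98 CPM against 216 and 285 (-4.51 ± 0.30), and PTPRZ1 at 29.2 and 13.5 against 149 and 137 (-2.74 ± 0.29). SPARCL1 (hevin) was higher, at 1850 and 1381 CPM against 32.9 and 27.5 (5.78 ± 0.19), as were NES (nestin), at 282 and 222 against 131 and 118 (1.06 ± 0.16), and PTN. Of the 6 genes that passed the filter 4 were higher and 2 lower (median 1.197). This balance did not hold without the filter, where 4 of 14 were higher, 3 lower and 7 not called (median -0.402). SPARCL1 and NES are known in vascular cells too. Of 9 microglial genes tested, 1 was higher (CD14, at 7 and 3 UMIs), a call lost with at least 4 second genes (adjusted p = 0.129), and CSF1R, TYROBP, CTSS and LYVE1 had 0 UMIs in members. The summed level of the 12 named microglial genes was 21.9 and 20.2 CPM against 9.16 and 9.24.

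Dividing cells were present among members. Of 11 genes of cell division tested, 9 were lower in members than in the other cells and 2 were not called (median -1.04), beside 19.6% lower over all genes tested. With no filter 9 of 16 were lower and 7 were not called (median -1.31). MKI67 stood at 362 and 391 CPM against 704 and 651 (-0.80 ± 0.17) and TOP2A at 318 and 478 against 1146 and 884 (-1.29 ± 0.20). With at least 5 of the 16 listed genes detected in a cell as a mark, 9 members (15.0%) and 11 members (17.7%) carried it, against 20.9% and 15.3% of the other cells. The shares of members and of other cells overlapped between embryos, and members were the deeper cells. The mark was carried by 3 of 16 and 6 of 19 members with 1 to 3 second genes, and by 6 of 44 and 5 of 43 with 4 to 6, a smaller share in both embryos. The mark counts detected genes and so depends on depth. The first stratum holds the 10 deep cells that met both vascular rules, and the shares without them were not taken.

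Muscle, glia of nerves and skeleton contributed few genes. PMP22, a myelin protein also made by fibroblasts, was the single tested gene of the Schwann list and was higher, at 630 and 395 CPM (5.74 ± 0.20). With no filter 1 of 6 genes of this list was higher and 5 were not called (median -1.72), and 4 of the 7 named had 0 UMIs in members. TNNT1, a troponin, stood at 192 and 115 CPM against 37.4 and 40.8 (2.00 ± 0.19), and PAX3, a factor of neural crest and muscle, had 0 and 11 UMIs (-1.77 ± 0.49), a call lost without the block. Of 12 named genes of cartilage and bone 1 passed the filter and it was not called. With no filter 10 were tested, of which IBSP and MATN3 (7 and 4 UMIs in members) were called higher and SOX9 (1 and 2 UMIs) lower. IBSP, a bone matrix protein that was named after its values had been seen, had 34 UMIs in embryo 1, of which 33 lay in 3 cells, and 0 in embryo 2.

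The members were last set beside the vascular classes, which were too small for the fixed minimum of 20 cells per embryo (13 and 15 endothelial-type cells, 8 and 8 mural-type cells), so that these fits used a minimum lowered to 5 cells after the files had been seen. Against endothelial-type cells, 127 of 3098 genes were higher in members (4.10%) and 78 lower (2.52%) by the same test. CRABP1, GJA1, MOXD1, APOE and S100A4 had 0 UMIs in endothelial-type cells and were at least 51.4-fold, 38.7-fold, 29.9-fold, 14.5-fold and 14.4-fold higher in members, counted against a floor of 3 UMIs over both embryos. HPGD, which degrades prostaglandins, was lower, at 94.8 and 78.6 CPM against 621 and 529 (-2.71 ± 0.39), and it had 0 UMIs in members with 4 to 6 second genes. TOP2A (-1.65 ± 0.35) and CENPF (-1.31 ± 0.39), genes of dividing cells, were lower too, and the CENPF call was lost with other size factors, another tool or no block. KDR and RAMP2 were lower in members (-1.76 ± 0.27 and -2.06 ± 0.24), but these genes had chosen the endothelial-type cells. With at least 4 second genes, 269 genes were higher (8.32%) and 184 lower (5.69%).

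The list counts against the vascular classes hold only genes that passed the filter, which a gene high in members alone could pass. With no filter, 188 of 15242 genes were higher than in endothelial-type cells and 55 lower, and list counts without it are not given. Of the genes that passed, 5 of 6 leptomeningeal transporters and enzymes, 4 of 6 collagens, 4 of 8 matrix glycoproteins and 4 of 8 ligands were higher than in endothelial-type cells. The counts were 2 of 10 for basement membrane genes, 1 of 8 for growth factor binders, 1 of 11 for receptors and 0 of 3 for collagen folding. In these lists 0 genes were lower. Of 11 dividing genes 4 were lower in members, as were 2 of 5 neuronal genes and, as the rule required in part, 7 of 8 endothelial genes. Of the 5 mural genes 2 were higher.
Over all 3098 genes tested against mural-type cells 14.8% were higher in members and 10.8% lower, shares that changed with the scaling, as given below. The make-up of this class, also given below, limits its list counts. Against this class 6 of 6 transporters and enzymes, 8 of 8 matrix glycoproteins, 9 of 10 basement membrane genes and 7 of 8 ligands were higher. The counts were 7 of 11 for receptors, 4 of 6 for collagens, 2 of 4 for transcription factors, 1 of 3 for proteoglycans and 0 of 3 for collagen folding, with 0 lower. Of 8 growth factor binders 3 were higher and 2 lower, of 2 retinoid genes 1 and 1, and of 11 dividing genes 0 and 9. Of 8 endothelial genes 5 were higher in members than in mural-type cells, a class that held no cell of the endothelial rule. Of 5 mural genes 0 were higher and 1 lower, in a class that mural genes had chosen.
Some of these counts changed without the 20 members that met another rule. Over all 3129 genes tested then, 475 were higher (15.2%) and 361 lower (11.5%) against mural-type cells, and 220 (7.03%) and 182 (5.82%) against endothelial-type cells. Against mural-type cells 5 of 10 basement membrane genes were then higher, and of 10 receptors 5 were higher and 2 lower. Still higher were 6 of 6 transporters and enzymes and 7 of 9 ligands, and 1 of 7 endothelial genes was higher. Of 5 mural genes 1 was then higher and 4 were lower. Against endothelial-type cells 3 of 10 basement membrane genes were then higher and 2 lower, of 10 receptors 2 and 4, and of 9 ligands 5 and 1, while 5 of 6 transporters and enzymes were higher and 0 lower.

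Against mural-type cells, 458 genes were higher in members (14.8%) and 335 lower (10.8%), a split that scaling by library totals turned to 253 higher and 483 lower, as the median of all genes moved from 0.10 to -0.21. The genes lower in members were led by MT3 (-4.25 ± 0.48), PTPRZ1 (-4.18 ± 0.39), KIF21A (-3.61 ± 0.36), CENPV (-3.56 ± 0.48) and SPC25 (-2.97 ± 0.43), among them PTPRZ1 of glia and SPC25 of dividing cells. PTPRZ1 stood at 670 and 277 CPM in the 16 cells of this class, above the 149 and 137 of the other cells, so the leading genes went against the name and the class is only that of the rule. S100A10, PROS1, DAB2, S100A4 and ITGBL1 had 0 UMIs in it and were at least 42.7-fold, 34.3-fold, 24.0-fold, 23.6-fold and 18.3-fold higher in members.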

How the data were processed

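Single-cell libraries of 2 embryos were analysed. The authors prepared them with 10x Chromium 3' chemistry, aligned the reads with Cell Ranger 3.1.0 to the TS_2.0 assembly and deposited raw UMI counts per gene model and barcode, without normalization. Of 23975 gene models, 2300 are named by identifier only. The paper's other species and experiments were not analysed here. The members and gene lists were chosen with earlier results of these data known, and 6 alternate gene names were added once the names had been seen.

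Cells were gated and classed by the rules given above, and a cell that met several vascular, microglial or choroid plexus rules was left out (13 cells). Doublets were kept. UMI sums per embryo and class were fitted with edgeR 4.0.16 in R 4.3.3 (TMM, filterByExpr defaults, glmQLFit and glmQLFTest, embryo as block, Benjamini-Hochberg adjustment over all genes tested, threshold 0.05). The SE given with a log2 fold change is its absolute value divided by the square root of the F statistic of this test. It is thus derived from the test and is not a spread measured over the embryos. The fit for the other cells held 3 classes and left 2 residual degrees of freedom, with a common biological coefficient of variation of 0.122. The fixed minimum of 20 cells left out endothelial-type and mural-type cells, so a second fit had 6 classes of at least 5 cells. On simulated data with 200 genes changed 4-fold, 92% were recovered in the comparison with the other cells (4317 genes, 2.13% of calls false), 82% in that with endothelial-type cells (2797 genes, 4.65%) and 90.5% in that with mural-type cells (2797 genes, 4.23%). In the simulation all classes had the same levels apart from these genes, which were drawn from those of higher counts, and the spread set was larger than that fitted. Members and other cells differed at more genes than that, so these rates need not hold for the comparisons above.

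Named genes were the 9 gate genes, the 12 with the largest and 6 with the smallest log2 fold change against the other cells (adjusted p under 0.05, one direction in both embryos, at least 20 UMIs in members of each embryo or 200 CPM in the other cells), up to 4 higher and 2 lower genes per list by level, 16 genes fixed by name, and the 5 largest and 5 smallest against each vascular class. Strata of members, cells with CDH1, NFL, RGS5, CSF1R, TYROBP, CTSS, LYVE1 and IBSP were chosen after values were seen. Alternatives were other collagen, second gene and gene minimums, members that met another rule or cells rich in haemoglobin left out, RLE and library-total scaling, no filter, no block, DESeq2 1.42.0, means over cells, thinning, and each embryo left out. Chromosome positions and sequences are not given, as no genome of the same build was used here. A gene of the lists is not reported here by name.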

Additional observations from a re-analysis of the deposited data

Results flagged for a closer look

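Barcodes with fewer than 200 genes, which entered no comparison, held 14 UMIs of COL1A1, COL1A2 and COL3A1 in embryo 1, over 833 barcodes, above the 3 counts that a count of 0 allows. The 358 such barcodes of embryo 2 held 3. The source of these UMIs was not tested.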

How the results depend on the processing

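With 2 embryos of one group and few member cells, differences between embryos could not be tested, and genes under about 20 UMIs in members mostly did not pass the filter. The number of members was 60 to 62 with one embryo left out, and 87 to 130 under the other gates tried. Cells that a stricter collagen or second gene minimum took out of the members were classed by the remaining rules, so some joined the comparison classes. Against the other cells, 1751 genes were lower with no filter, 551 by DESeq2 with the embryo block, and 808 were higher with all classes of at least 5 cells in one fit (added after seeing the data), where 3098 genes were tested in place of 4385. Without the replicate block 1180 were higher and 747 lower. Against endothelial-type cells, higher and lower genes numbered 213 and 172 with at least 10 collagen UMIs, 220 and 182 without members that met another rule, and 269 and 184 with at least 4 second genes (added after seeing the data), and 38 were lower with at least 1000 genes per cell. Against mural-type cells 253 were higher and 483 lower with library totals, which moved the median of all genes from 0.10 to -0.21. The cause of the other shifts was not tested. HBB (0.38) and HBG1 (0.49) turned to higher in members with at least 1000 genes per cell, and HBE1 (0.036) with haemoglobin-rich cells left out. Of the other values of single genes, 1336 kept direction and call or moved by less than the SE, 230 values without a test moved, and 21 lost their call, those of CADH2, DKK3, CENPF and the haemoglobins among them. The 230 were most of the values without a test. Without embryo 1, 73 moved by the SE or more and 30 did not, and without embryo 2, 81 and 22. As means over cells, 70 moved and 33 did not. The replicate block changed the calls of CENPF, HBG1 and PAX3.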
